A study of Mus musculus and Rattus norvegicus with 33 samples.

Results

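The genes described are those of the mitochondrial ribosomal proteins, 70 genes that were found in both the mouse and the rat expression table. They were chosen as symbols that begin with Mrpl or Mrps followed by a number, with at most 1 letter after it, and that reached 1 CPM (reads scaled to a common library total) in at least 2 libraries of each species. The pattern matched 78 mouse symbols and 71 rat symbols, and 71 stood in both tables. Mrps28 did not reach the level in rats and was left out. Mrpl11, Mrpl24, Mrpl28, Mrpl33, Mrpl39, Mrpl9 and Mrps6 matched in the mouse table alone, and the rat table lists Mrpl11, Mrpl24 and Mrpl9 in lower case, which the pattern does not match. By the letter in the symbol 43 members belong to the large and 27 to the small subunit. They were read against 13647 mouse and 10356 rat genes tested in all.

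The study stimulated a leg nerve of wild-type (WT) mice and rats in vivo with implanted stimulators and sequenced RNA from the tibialis anterior, the shin muscle that lifts the foot. Mouse left legs comprise 2 that had trained for 2 days, 3 for 10 days and 3 for longer than 17 days, set against 9 right legs that were not trained. Rat left legs comprise 2 with training each day over 30 days, 3 with training every 3 days over that time and 3 sham legs, whose label names surgery alone, set against 8 untrained right legs. The label of each trained leg puts the sampling 1 hour past exercise. Legs carry the codes of the labels, TAL for left and TAR for right, with the number of the animal. The contralateral legs came from the same animals, apart from TAR348, whose left leg was not analysed here. Mice had no sham group, so side, surgery and training cannot be told apart in them. Age, sex and strain are not given in the sources used here.

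Estimated depth was 26.5 to 43.1 M reads in the mouse libraries. Of the rat libraries TAR299, a contralateral leg, had 4.87 M reads, and the next lowest had 11.6 M. TAR299 stood apart from the other contralateral legs in 12 of 32 members looked at singly, so rat results that change with it are also given without it. These 32 were named partly for extreme changes against contralateral legs, which an odd contralateral leg can itself produce. The 8 muscle fibre markers, among them Acta1, Ckm and Myh4, summed to between 84654 and 142431 CPM in every mouse leg and between 125081 and 209828 CPM in every rat leg. Every member reached 1 CPM in at least 16 of the 17 mouse libraries and in all 16 rat libraries. In muscle taken whole, fewer cells of a type and less RNA per cell cannot be told apart.

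Mitochondria keep a small genome of their own, and its messenger RNAs, which encode core subunits of the respiratory chain, are translated inside the organelle by a separate ribosome. The RNA of this ribosome is made in the mitochondrion, whereas its proteins are encoded in the nucleus, made in the cytoplasm and imported. The small subunit binds and decodes the messenger, and the large subunit joins the amino acids and releases the new chain at the inner membrane. Muscle that is used for endurance is known for a high mitochondrial content.

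Nuclear genes for mitochondrial proteins are known targets of the ETS factor Gabpa, of Nrf1 and of Yy1, so promoter sequence was set beside the members. RefSeq promoter windows of the mouse (GRCm38.p6, 250 bases before to 50 after the start) matched 62 of the 70 members. Mrpl4, Mrpl13, Mrpl15, Mrpl19, Mrpl38, Mrpl54, Mrps34 and Mrps35 had no entry. The windows below are shown for members that rose in daily trained rats against contralateral or sham legs, from 120 bases before to 30 after the start, with matches to the ETS letters CCGGAAG and the Yy1 letters AAGATGG in capitals.
Mrpl45, chr11:97315596-97315745, plus strand: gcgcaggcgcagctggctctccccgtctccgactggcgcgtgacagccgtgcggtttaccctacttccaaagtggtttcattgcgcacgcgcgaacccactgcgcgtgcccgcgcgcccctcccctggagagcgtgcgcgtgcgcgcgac
Mrpl41, chr2:24975069-24975218, minus strand: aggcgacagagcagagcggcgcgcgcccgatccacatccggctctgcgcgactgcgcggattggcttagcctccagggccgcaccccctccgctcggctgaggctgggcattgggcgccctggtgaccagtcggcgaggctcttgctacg
Mrpl40, chr16:18876608-18876757, minus strand: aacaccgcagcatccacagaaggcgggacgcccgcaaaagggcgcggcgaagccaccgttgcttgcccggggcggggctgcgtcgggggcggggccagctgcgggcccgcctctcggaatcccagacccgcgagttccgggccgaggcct
Mrps18a, chr17:46110884-46111033, plus strand: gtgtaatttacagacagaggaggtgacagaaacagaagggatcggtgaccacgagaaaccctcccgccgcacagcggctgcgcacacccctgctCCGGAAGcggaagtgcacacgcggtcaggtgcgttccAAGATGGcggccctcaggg
Mrpl57, chr14:57826119-57826268, plus strand: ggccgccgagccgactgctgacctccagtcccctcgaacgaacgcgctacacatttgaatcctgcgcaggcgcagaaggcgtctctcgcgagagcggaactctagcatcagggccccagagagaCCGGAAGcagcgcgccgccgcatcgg
The windows of Mrpl45, Mrpl41 and Mrpl40 held none of the 4 motifs in the exact letters searched, also in their whole length. For Nrf1 these letters were GCATGCG alone. Forms of its site with other letters were not looked for, so these windows are not shown to lack an Nrf1 site. That of Mrps18a held the ETS letters at base -26 and the Yy1 letters at base 12, counted from the start, and that of Mrpl57 held the ETS letters at base 5.

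The ETS letters CCGGAAG, on either strand, lay in 24 of 62 member windows (38.7%), against 17.9% of the 10077 windows of mouse genes tested and 9.12% of all 27025 windows. The Yy1 letters AAGATGG lay in 13 of 62 (21.0%), against 7.32% and 6.48%. GCATGCG, a form of the core of the Nrf1 site, lay in 5 of 62 (8.06%), against 6.51% and 3.64%. Other forms of that core were not searched, so these shares do not give how often Nrf1 sites occur. The E-box CACGTG bound by Myc lay in 5 of 62 (8.06%), against 10.4% and 7.24%. GCATGCG overlaps its own complement, and no 2 different motifs overlapped in a member. By subunit the ETS letters lay in 13 of 37 large and 11 of 25 small subunit windows. These are matches of letters and show no binding.

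In unstimulated contralateral rat muscle the members spanned a wide range of levels per length of transcript. Mrpl54 had the highest level, at 150.6 ± 26.7 CPM per kilobase (SD, n = 8), followed by Mrps36 at 125.7 ± 35.8, Mrpl17 at 110.2 ± 13.7 and Mrpl12 at 108.6 ± 31.6. Each step in that order was smaller than the SD of the member above it. Mrps36 is now known as a subunit of the 2-oxoglutarate dehydrogenase complex and not of the ribosome, and Mrpl12 forms the stalk of the large subunit and binds the mitochondrial RNA polymerase. By its symbol Mrps36 was kept in all small subunit values here. The lowest level was that of Mrps10, at 6.27 ± 2.39 CPM per kilobase. Between contralateral legs the SD of a member on the log2 scale had a median of 0.17 in mice and 0.23 in rats. The rat median includes TAR299, and the widest member there, Mrpl42, had an SD of 0.90.

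**Figure D1:**
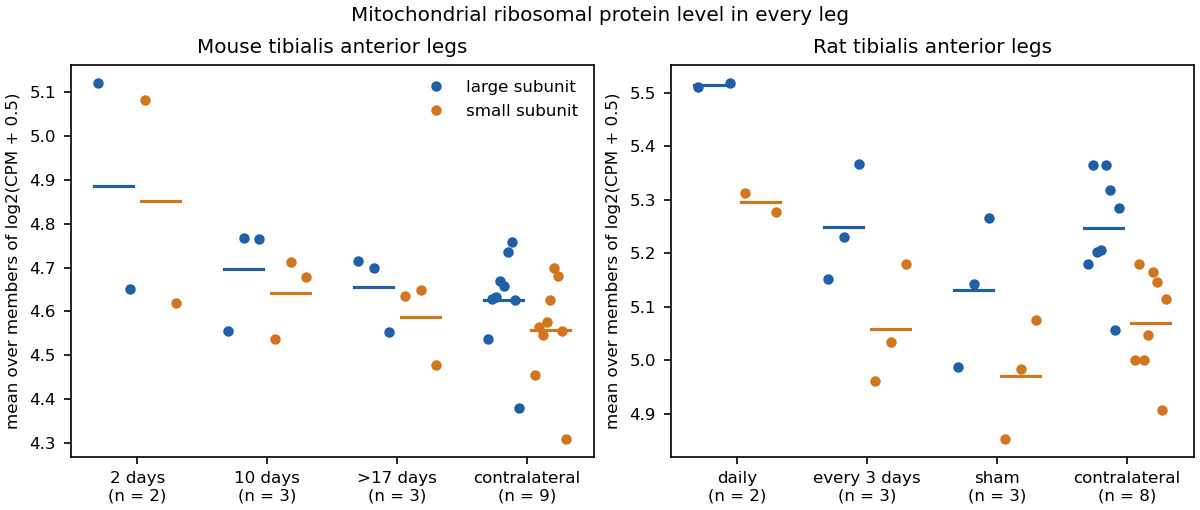
Mean over the members of log2(CPM + 0.5) in every leg, large subunit (blue, 43 genes) and small subunit (orange, 27 genes); points are legs and bars group means, and the vertical axes do not start at 0. In mice leg TAL344 of the 2-day group lies apart at 5.12 and 5.08, and in rats both daily trained legs lie above every contralateral leg.

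After 2 days of training in mice the members were high in 1 of the 2 trained legs and not in the other. The large subunit mean, on the log2(CPM + 0.5) scale, was 5.12 in leg TAL344 and 4.65 in leg TAL345, against 4.38 to 4.76 in the 9 contralateral legs. The small subunit mean was 5.08 in TAL344 and 4.62 in TAL345, against 4.31 to 4.70 in the contralateral legs. All 70 members summed to 2808 CPM in TAL344 and 2020 CPM in TAL345, against 1663 to 2168 CPM in the contralateral legs. TAL344 was thus above every contralateral leg in each of these measures, and TAL345 lay inside their range. Set against the right leg of its own animal, TAL344 was higher in 63 of 70 members and TAL345 in 22 of 70. Of all genes 70.4% were higher in TAL344 and 51.6% in TAL345, with medians of 0.27 and 0.01.

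Fitted over both legs, 67 of 70 members had a change above 0 at 2 days, against 64.1% of all genes. The median log2 change was 0.23 for the large and 0.29 for the small subunit, against 0.11 over all genes tested. With limma 4 members rose at an adjusted p under 0.05 and none fell, against 7.32% of all genes that rose. The share of 4 in 70 is near that background. In 6 of 70 members both trained legs were above all 9 contralateral legs, against 10.1% of all genes. All calls rest on TAL344: without it limma called 0 members, with 0 at an unadjusted p under 0.05, and the subunit medians were 0.0073 and 0.04. Without TAL345, where the lone leg is assumed to vary like the other groups, 37 were called, all higher, against 19.9% of all genes in that fit. With the animal as a block 0 were called and 2 had an unadjusted p under 0.05.

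Mrps34, a small subunit protein, had 88.0 CPM in TAL344 and 47.2 CPM in TAL345, against a lowest of 31.8, a median of 40.0 and a highest of 47.5 CPM in contralateral legs. TAL344 was the only leg of the group outside the contralateral range. Its log2 change was 0.73 (SE 0.20, limma adjusted p = 0.0291). Mrpl41, a large subunit protein also known to take part in cell cycle arrest, had 22.0 CPM in TAL344 and 13.8 CPM in TAL345, against 7.66, 11.7 and 13.9 CPM as lowest, median and highest. Its change was 0.63 (SE 0.19, limma adjusted p = 0.0397), again with TAL345 inside the contralateral range.

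Mrpl40 and Mrpl48, both of the large subunit, were the 2 called members in which both trained legs lay above all controls. Mrpl40 had 21.3 CPM in TAL344 and 15.7 CPM in TAL345, against 11.5 to 14.8 CPM (median 12.9), a log2 change of 0.50 (SE 0.12, limma adjusted p = 0.0156). Mrpl48 had 30.7 CPM in TAL344 and 26.9 CPM in TAL345, against 20.4 to 24.4 CPM (median 23.1), a change of 0.32 (SE 0.098, limma adjusted p = 0.0428). The call of Mrpl48 was lost in 10 of the 17 fits that left out 1 library, with adjusted p of 0.0211 to 0.622 over those fits.

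Mrpl57 was not called and had 31.2 CPM in TAL344 and 12.9 CPM in TAL345, against 10.7 to 15.5 CPM in contralateral legs (limma adjusted p = 0.0892). Mrpl12 had 121.8 CPM in TAL344 and 83.5 CPM in TAL345, against 56.4 to 98.7 CPM (log2 change 0.38, SE 0.18, limma adjusted p = 0.19). Mrps12, a protein of the decoding centre, had 28.2 and 20.8 CPM in these legs, against 13.2 to 19.9 CPM (change 0.50, limma adjusted p = 0.0545). Mrpl50 was the member with the lowest change, at 33.4 and 38.8 CPM, against 36.2 to 47.1 CPM (change -0.23, limma adjusted p = 0.224).

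Leg TAL344 also stood apart in some values outside the members. Mitochondrially encoded genes took 11.4% of its CPM and 19.0% of that of TAL345, against 13.4 to 23.6% in contralateral legs. With these genes left out and the rest rescaled, 2 members were called and the median over the 70 was 0.21. Rescaling by medians of ratios moved the median of all genes to -0.0034, the subunit medians to 0.11 and 0.17, and left 2 members called. Over all genes 999 rose and 327 fell as deposited, against 776 and 699 after this rescaling. All 8 macrophage markers had a change above 0 and 2 were called, and they summed to 166.9 CPM in TAL344 and 82.3 CPM in TAL345, against 21.0 to 98.8 CPM. The 5 fibroblast markers summed to 949 CPM in TAL344 and 775 CPM in TAL345, so both legs were above the 209 to 680 CPM of contralateral legs, with 1 called. The macrophage and fibroblast sums were higher still in leg TAL337 of the mice trained over 17 days, at 274 and 2582 CPM, whose large subunit mean was 4.71. The part of other cell types in the member values was not tested.

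After 10 days of training limma called 0 members, against 5.53% of all genes called in either direction. Of the members 4 had an unadjusted p under 0.05. The median log2 change was 0.10 for the large and 0.04 for the small subunit, against 0.03 over all genes. Mrps34 had the highest change, 0.49 (SE 0.17, limma adjusted p = 0.115), with 47.9, 66.1 and 50.9 CPM, all above the highest contralateral leg at 47.5 CPM, and it passed without TAL344 or without TAL345 (limma adjusted p = 0.0489 in each). After more than 17 days 0 members were called, against 8.78% of all genes called in either direction. Of the members 3 had an unadjusted p under 0.05. The medians were 0.06 for the large and 0.03 for the small subunit, against 0.05 over all genes. Of all genes 860 rose and 338 fell (904 and 665 after rescaling by medians of ratios). Against the right legs of the same animals the 3 legs were higher in 56, 37 and 58 of 70 members, with medians of 0.16, 0.03 and 0.17. For TAL337, TAL343 and TAL349 in that order 69.7, 53.7 and 57.6% of all genes were higher, with medians of 0.18, 0.03 and 0.06. Only TAL349 thus had a member median well above that of all genes. With the animal as a block 57 of 70 members lay above 0, against 42 without it, the median over the 70 was 0.12 rather than 0.05, and again 0 were called, with 4 at an unadjusted p under 0.05. Without the block 57.8% of all genes lay above 0, and their share under the block is not given here. Mrps34 had 59.4, 53.2 and 40.1 CPM in the legs trained over 17 days, a change of 0.38 without the block (SE 0.17, limma adjusted p = 0.193). Mrps30, which is named for the small subunit but sits in the large one, had 32.1, 25.1 and 22.8 CPM, against 17.2 to 26.7 CPM (change 0.29, limma adjusted p = 0.194). After over 17 days the other members at the ends of the range were Mrpl34 at 0.34, Mrps18a at -0.26, Mrps11 at -0.19 and Mrpl2 at -0.17. After 10 days they were Mrps12 at 0.34, Mrpl47 at -0.11 and Mrpl23 at -0.27. All had overlapping groups (limma adjusted p of 0.167 to 0.625). Mrpl23 was low in mice, at 0.55, 2.40 and 1.30 CPM in the 10-day legs. Its 10-day change ran from -0.63 to 0.10 when any 1 library was left out, so its sign is not settled.

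Between the mice trained for over 17 days and those trained for 2 days limma also called 0 members, against 0.586% of all genes called. At an unadjusted p under 0.05 there were 14 members, and the share of all genes at that level is not given here. The medians were -0.23 for the large and -0.32 for the small subunit, against -0.05 over all genes, and 11 of 70 members were below in every leg, against 11.3% of all genes. Without TAL345 there were 25 calls, all lower, against 13% of all genes in that fit, and without TAL344 the medians were 0.02 and -0.04. The comparisons of the 3 training times share the same contralateral legs.

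**Figure D2:**
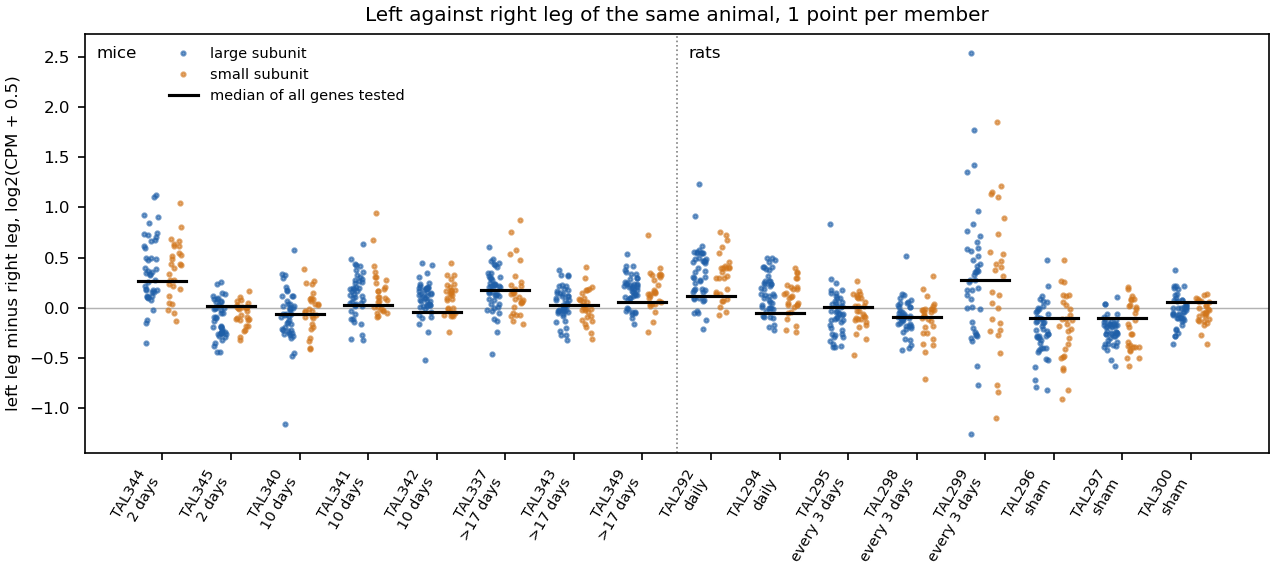
Left minus right leg of the same animal on the log2(CPM + 0.5) scale, 1 point per member, large subunit blue and small subunit orange, with the median of all genes tested as a black bar. Members of TAL344 and TAL292 lie mostly above 0, those of the sham rats mostly below, and the wide spread of TAL299 is set against the shallow leg TAR299.

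In rats trained daily for 30 days the members were high in both trained legs. The large subunit mean on the log2(CPM + 0.5) scale was 5.51 in TAL292 and 5.52 in TAL294, against 5.06 to 5.37 in the 8 contralateral legs, and the small subunit mean was 5.31 and 5.28, against 4.91 to 5.18. Both daily legs were above every contralateral leg in both subunits. Summed over the 70 members the legs held 3807 and 3845 CPM, against 2949 to 3492 CPM in contralateral legs. Against its own right leg TAL292 was higher in 63 and TAL294 in 55 of 70 members, with median changes of 0.31 and 0.12. Of all genes 60.3% were higher in TAL292 and 44.7% in TAL294, with medians of 0.12 and -0.05.

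Over both legs 64 of 70 members had a change above 0, against 57.4% of all genes. The medians were 0.28 for the large and 0.23 for the small subunit, against 0.06 over all genes tested. In 21 of 70 members both daily legs were above all 8 contralateral legs, against 13.3% of all genes. With limma 3 members rose, Mrpl45, Mrpl41 and Mrps18a, and none fell, against 5.33% of all genes that rose, so the share called is near the background. Without the shallow leg TAR299 there were 9 calls, the other 6 being Mrpl17, Mrpl20, Mrpl40, Mrpl43, Mrps34 and Mrps36, against 7.52% of all genes that rose in that fit, while the medians stayed within 0.24 to 0.30 for the large and 0.19 to 0.25 for the small subunit when any 1 library was left out. Without TAL292 limma called 0 members, with 7 at an unadjusted p under 0.05, and without TAL294 it called 1. With the animal as a block only Mrpl45 was called.

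Mrpl45, which anchors the large subunit at the inner membrane beside the exit of the new chain, had the largest change of the members. It lies on rat chromosome 10 from 82308650 to 82320475, plus strand, in the deposited rat table (rn7 is the one rat build in the submitters' processing notes). It had 181 and 153 CPM in the daily legs and 149, 144 and 119 CPM in the legs trained every 3 days, against 63.6, 72.9 and 95.6 CPM in sham legs and a lowest of 76.9, a median of 93.0 and a highest of 108.6 CPM in contralateral legs. All 5 trained legs were above all 11 others. The log2 change of daily against contralateral legs was 0.88 (SE 0.15, limma adjusted p = 0.00141), and that of legs trained every 3 days 0.59 (SE 0.13, limma adjusted p = 0.00942). With the animal as a block these were 0.86 (limma adjusted p = 0.0416) and 0.57 (limma adjusted p = 0.0635). Each trained rat had more in its left than in its right leg, by 1.23 and 0.50 on the log2 scale after daily training and by 0.83, 0.52 and 0.37 after training every 3 days. In mice Mrpl45 had 55.6 and 44.0 CPM after 2 days, against 34.8 to 52.1 CPM (change 0.13, SE 0.15, limma adjusted p = 0.606).

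Mrpl41 had 38.1 and 39.6 CPM in daily legs, 29.1, 28.3 and 32.3 CPM in legs trained every 3 days and 26.0, 23.7 and 25.2 CPM in sham legs, against 26.0 to 30.7 CPM in contralateral legs (median 27.7). Both daily legs stood clear of all 14 others. The change against contralateral legs was 0.47 after daily training (SE 0.11, limma adjusted p = 0.00989) and 0.10 after training every 3 days (SE 0.092, limma adjusted p = 0.614). Mrps18a, also a protein of the large subunit in spite of its name, had 61.5 CPM in both daily legs, 44.6, 49.8 and 56.4 CPM in legs trained every 3 days and 53.3, 47.1 and 51.3 CPM in sham legs, against 38.4 to 49.0 CPM. Its daily change was 0.44 (SE 0.12, limma adjusted p = 0.0306). Sham legs TAL296 and TAL300, at 53.3 and 51.3 CPM, also lay above the contralateral range, and TAL297 lay inside it. Of the legs trained every 3 days TAL298 and TAL299 were above that range too. Daily against sham legs, Mrps18a was not called.

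Among members whose call depended on the shallow leg, Mrps36 had 181 and 177 CPM in daily legs, against 43.7 CPM in TAR299 and 100.6 to 144 CPM in the other contralateral legs, a change of 0.71 (SE 0.31, limma adjusted p = 0.178) that became 0.52 (limma adjusted p = 0.0466) without TAR299. Mrpl20 had 58.0 and 56.5 CPM, against 15.8 CPM in TAR299 and 32.4 to 46.4 CPM in the others, a change of 0.64 (limma adjusted p = 0.17) that became 0.47 (limma adjusted p = 0.0239). Mrps34 had 61.5 and 56.3 CPM, against 83.2 CPM in TAR299 and 41.1 to 48.6 CPM in the others, a change of 0.24 (limma adjusted p = 0.457) that became 0.34 (limma adjusted p = 0.0156). In all 3 the daily legs lay above the other 7 contralateral legs. Mrpl12 was not called with or without it, at 175 and 201 CPM, against 282 CPM in TAR299 and 127 to 184 CPM in the others, a change of 0.18 (limma adjusted p = 0.662) that became 0.30 (limma adjusted p = 0.19). Mrpl23 had the lowest change, at 19.5 and 17.4 CPM, against a lowest of 18.6 and a median of 23.0 CPM (change -0.27, limma adjusted p = 0.306).

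Mrpl58, Mrps16, Mrpl44, Mrpl3, Mrps22 and Mrpl18, read singly for a known role of their own, were not called in 2-day mice or in daily rats. Mrpl58, which frees stalled chains from the ribosome, had 30.3 CPM in TAL344 and 17.4 CPM in TAL345, against 12.2 to 20.9 CPM in contralateral mouse legs (limma adjusted p = 0.197). In rats it had 37.3 and 43.0 CPM in daily legs, against 22.8 CPM in TAR299 and 31.1 to 40.5 CPM in the others, a change of 0.26 (limma adjusted p = 0.382) that became 0.18 (limma adjusted p = 0.344) without TAR299. Both species thus had 1 trained leg inside the contralateral range. Mrps16, mutated in a respiratory chain disorder in humans, had 37.8 and 36.4 CPM in daily rat legs, against 14.0 CPM in TAR299 and 22.3 to 33.8 CPM in the others, a change of 0.55 (limma adjusted p = 0.15) that became 0.43 (limma adjusted p = 0.0651) without TAR299. The daily legs were above all 8. Mrpl44 had 34.5 and 38.6 CPM, against 24.2 to 39.4 CPM (change 0.19, limma adjusted p = 0.574), and overlapped with or without TAR299. Mrpl3 had 125.5 and 134.6 CPM, against 142.3 CPM in TAR299 and 87.6 to 124.3 CPM in the others, a change of 0.29 (limma adjusted p = 0.292) that became 0.35 (limma adjusted p = 0.0899) without TAR299. Its daily legs were thus above all contralateral legs but TAR299. The daily change of Mrpl18 was 0.11 with or without that leg, that of Mrps22 was 0.25 with it and 0.08 without, and that of Mrps25 was -0.02 with it and 0.09 without, none of them called.

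**Figure D3:**
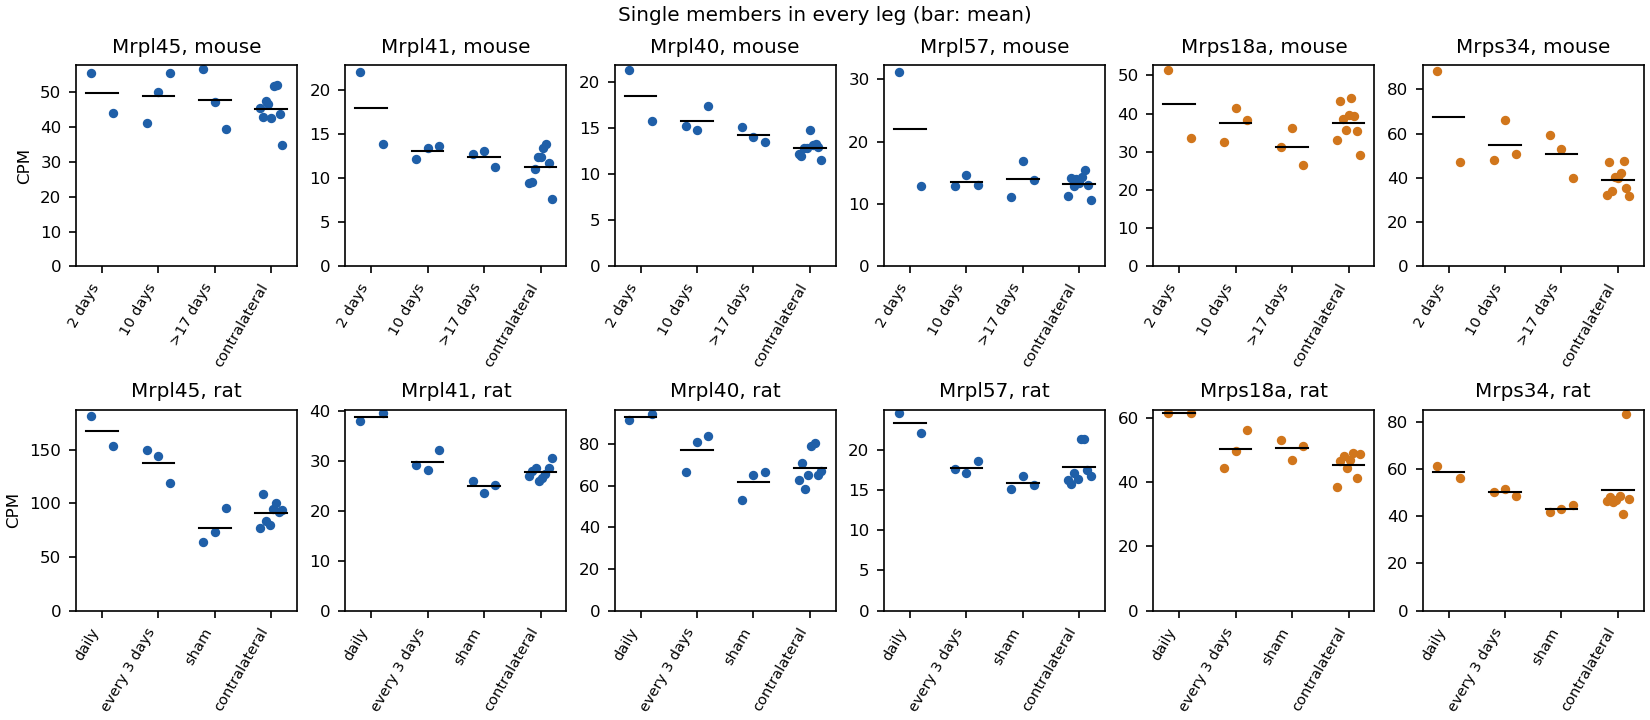
CPM of 6 members called in at least 1 comparison in every leg, mice above and rats below, with group means as bars and axes from 0. Mrpl45 in the 5 trained rat legs spans 119 to 181 CPM, above all sham and contralateral legs, and in mice it overlaps between groups.

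Training every 3 days left the members near their contralateral level. The medians were 0.012 for the large and -0.0041 for the small subunit, against 0.03 over all genes. Of the members 38 of 70 had a change above 0, against 54.2% of all genes. Mrpl45 alone was called with limma, against 4.96% of all genes that rose, and 1 of 70 members was above in every leg, against 6.8% of all genes. With the animal as a block 0 were called and 6 had an unadjusted p under 0.05. Without TAL295 or without TAL298 the call of Mrpl45 was lost too, and without TAR299 Mrpl52 also passed, as lower. Mrpl52 had 10.9, 12.3 and 12.1 CPM, against 29.6 CPM in TAR299 and 13.2 to 18.5 CPM in the other contralateral legs, a change of -0.54 that became -0.43 without TAR299 (limma adjusted p = 0.0186). Mrpl27 also lay below every contralateral leg (change -0.26, limma adjusted p = 0.103), whereas Mrps10 at -0.39, Mrpl46 at 0.23 and Mrpl48 at 0.29 overlapped (limma adjusted p of 0.385 to 0.658). Without TAR299 the last 3 changes were -0.28, 0.15 and 0.06, and the subunit medians were -0.03 each.

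In sham legs the members lay slightly below the contralateral legs, with no call. The medians were -0.13 for each subunit, against -0.04 over all genes. Of the members 12 of 70 had a change above 0, against 41.1% of all genes. Limma called 0 members, with 0 at an unadjusted p under 0.05, in a comparison in which 0% of all genes were called. The large subunit mean was 4.99, 5.14 and 5.27 in sham legs, against 5.06 in TAR299 and 5.18 to 5.37 in the other contralateral legs. Against their own right legs the sham legs TAL296, TAL297 and TAL300 were higher in 15, 12 and 29 of 70 members, with medians of -0.20, -0.21 and -0.03. Of all genes 40.1, 34.5 and 61.3% were higher in these legs, with medians of -0.10, -0.10 and 0.05. The changes ran from -0.34 for Mrpl14 and -0.32 for Mrpl44 to 0.15 for Mrps18a, and each of these groups overlapped.

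Daily trained legs were next set against sham legs, whose label names surgery alone. The medians were 0.42 for the large and 0.28 for the small subunit, against 0.10 over all genes. Of the members 69 of 70 had a change above 0, against 60% of all genes. Over all genes 573 rose and 270 fell, against 503 and 409 after rescaling by medians of ratios. In 51 of 70 members both daily legs were above all 3 sham legs, against 28.2% of all genes. With limma 4 members rose, against 5.53% of all genes: Mrpl45 by 1.12 (SE 0.18, adjusted p = 0.000606), Mrpl41 by 0.63 (SE 0.12, adjusted p = 0.00403), Mrpl40 by 0.60 (SE 0.16, adjusted p = 0.0251) and Mrpl57 by 0.54 (SE 0.16, adjusted p = 0.0424). Mrpl40 had 91.6 and 94.6 CPM in daily legs, against 53.4, 65.2 and 66.6 CPM in sham legs. Mrpl57 had 24.5 and 22.1 CPM, against 15.1, 16.7 and 15.6 CPM, and lost its call in 11 of the 16 fits that left out 1 library. TAR299, which enters here only through the shared estimate of spread, moved the count: without it 18 members were called, 13 of the large and 5 of the small subunit, against 9.83% of all genes that rose in that fit. Without TAL300 there were 9 calls, against 6.5% of all genes, without any other single left leg of the 2 groups 2, and with the animal as a block 0, with 13 at an unadjusted p under 0.05. Paired values between left legs are differences of own-leg changes and so not the same quantity.

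For legs trained every 3 days against sham legs, Mrpl45 was again the only call, at 0.84 (SE 0.16, limma adjusted p = 0.00335), against 3.55% of all genes that rose. The call was lost with the animal as a block (0.79, limma adjusted p = 0.127), where 0 members were called and 8 had an unadjusted p under 0.05. In 7 of 70 members every leg was above every sham leg, against 15.6% of all genes. The medians were 0.12 and 0.06, against 0.07 over all genes.

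Daily trained legs against legs trained every 3 days gave medians of 0.26 for the large and 0.23 for the small subunit, against 0.03 over all genes. A change above 0 was found in 68 of 70 members, against 54.4% of all genes. In 45 of 70 both daily legs were above all 3 others, against 13.1% of all genes. Limma called 0 members and 0.0869% of all genes. Of the members 7 had an unadjusted p under 0.05. Mrpl1 had the largest difference, 0.62 (SE 0.24, limma adjusted p = 0.687), and Mrpl41 the smallest p, with a difference of 0.37 (SE 0.12, limma adjusted p = 0.554). Mrpl45 differed by 0.29 (SE 0.18, limma adjusted p = 0.927), with its 2 daily legs above all 3 others.

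**Figure D4:**
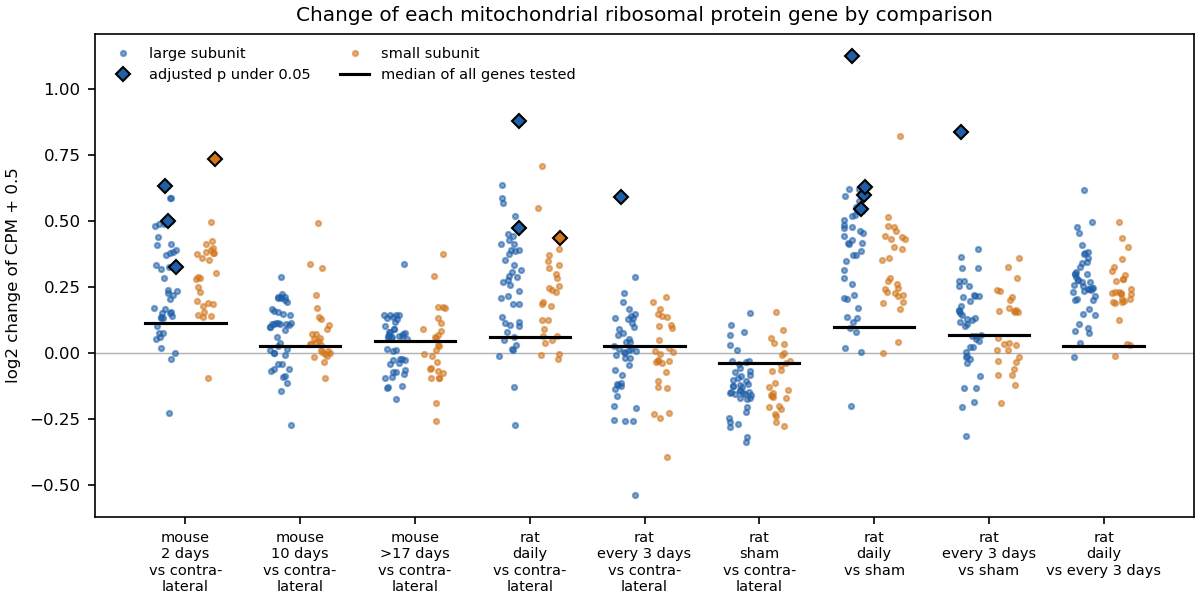
Log2 change of CPM + 0.5 of each member in 9 comparisons, large subunit blue and small subunit orange, called members as outlined diamonds and the median of all genes tested as a black bar. Both subunits lie above that bar together after daily training in rats, and Mrpl45 stands alone after training every 3 days.

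The gap between the subunits was similar in trained and control legs. On the log2(CPM + 0.5) scale, which is not per length, the large mean exceeded the small mean by 0.04 and 0.03 in the 2-day mouse legs, by 0.02 to 0.09 after 10 days and by 0.05 to 0.08 after over 17 days, against 0.03 to 0.09 in contralateral mouse legs. In rats it was 0.20 and 0.24 in daily legs, 0.19 to 0.20 after training every 3 days and 0.13 to 0.19 in sham legs, against 0.15 to 0.20 in contralateral legs. Only TAL294 was outside the contralateral range upwards. With Mrps18a and Mrps30 counted in the large subunit, where they sit, the daily legs gave 0.27 and 0.32, against 0.21 to 0.27 in contralateral legs. TAL292 thus lay inside and TAL294 above that range. Sham leg TAL300 also lay just above it, at 0.269 against a highest of 0.267, and the other sham legs lay inside. Mrps36, though not of the ribosome, stayed in the small subunit mean in both ways of counting.

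Other genes of mitochondrial gene expression gave a varied picture in daily trained rats against contralateral legs. Of 25 assembly factors of the ribosome tested 0 were called, with 2 at an unadjusted p under 0.05 (median 0.04), as were 0 of 14 translation factors (1 unadjusted, median 0.12) and 0 of 17 mitochondrial aminoacyl-tRNA synthetases (1 unadjusted, median 0.10). Of 21 import genes Timm10, a carrier chaperone between the membranes, rose by 0.55 (SE 0.15, limma adjusted p = 0.0362), and the median was 0.24. Nuclear-encoded respiratory chain subunits had a median of 0.42, all 76 lay above 0 and 13 rose, while 0 of 72 cytoplasmic ribosomal proteins were called, with 3 unadjusted (median 0.04). Polg, the mitochondrial DNA polymerase, fell by 0.67 (SE 0.16, limma adjusted p = 0.016). Of 9 nuclear regulators Ppargc1a, the coactivator PGC-1alpha, rose by 2.64 (SE 0.22, limma adjusted p = 6.1e-07) and Myc by 2.97 (SE 0.49, limma adjusted p = 0.000789). Both also rose after training every 3 days, Ppargc1a by 1.96 (SE 0.18, limma adjusted p = 1.6e-06) and Myc by 3.30 (SE 0.42, limma adjusted p = 4.4e-05), where the member medians were near 0. All 5 proteins of this ribosome listed under other symbols, Dap3, Ptcd3, Chchd1, Aurkaip1 and Gadd45gip1, had a daily change above 0 (median 0.17) and 0 were called or had an unadjusted p under 0.05.

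In 2-day mice the order of the lists differed. Cytoplasmic ribosomal proteins had a median of 0.60 and 27 of 75 rose, whereas respiratory chain subunits had a median of 0.17 and 0 of 81 were called, with 9 at an unadjusted p under 0.05. Against the right leg of the same animal, cytoplasmic ribosomal proteins had a median of 0.96 in TAL344 and 0.07 in TAL345, and the 70 members 0.37 and -0.09. In daily rats the same own-leg medians were 0.20 and -0.02 for cytoplasmic ribosomal proteins, 0.31 and 0.12 for the members, and 0.62 and 0.28 for respiratory chain subunits, in TAL292 and TAL294.

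Markers of other cells also moved with daily training in rats. The 8 macrophage markers summed to 45.0 and 36.3 CPM, against 10.7 to 32.8 CPM in contralateral legs, with 8 of 8 above 0 and 0 called (5 unadjusted). The 5 fibroblast markers summed to 1440 and 1260 CPM, against 309 to 772 CPM, with 1 called. In legs trained every 3 days these sums were 18.1 to 57.8 CPM and 723 to 2214 CPM. Of the 8 muscle fibre markers Myh1 rose by 1.57 after daily training, and Myh4 fell by 8.22, Pvalb by 2.86 and Ckm by 0.54 (limma adjusted p = 0.006, 1.2e-07, 3.7e-05 and 0.0452). The part of these shifts in the member values was not tested.

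The ranks of the member changes were at most weakly related between the 2 species. Across the 70 members the 2-day mouse change and the daily rat change had a Spearman correlation of -0.05. In both 63 members were above 0, where 67 were so in the mice and 64 in the rats. With rats trained every 3 days the 2-day change gave -0.10. The 10-day change gave -0.02 with daily rats and 0.03 with rats trained every 3 days. The change after over 17 days gave 0.22 and 0.18 in that order. Points of a species share their libraries and contralateral legs, so these values are a description only. Contralateral levels in CPM, not per length, correlated at 0.48.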

How the data were processed

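RNA of the tibialis anterior was sequenced in 17 mouse and 16 rat libraries. The authors deposited CPM with an offset of 0.0001, which was subtracted here. Partek, DESeq2, STAR 2.7.8a and the genome builds rn7, GRCm39 and mm10 appear in the submitters' processing notes with no role stated. Transcript lengths are those of the deposited rat table. Rat entries of 1 symbol were summed (13166 entries, 12411 symbols), and of mouse entries with the same symbol the most abundant was kept, which dropped 23.

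Depth was estimated from the steps between low CPM values. Among values of 20 reads or fewer, 85.2 to 87.2% in mice and 87.6 to 89.5% in rats came out whole (within 0.05 of a read). Since 95% was required, read counts were not recovered and not tested.

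Genes at 1 CPM or more in at least 2 libraries entered limma 3.58.1 (R 4.3.3) as log2(CPM + 0.5), with a mean-variance trend, 2-sided, over all libraries of a species. The Benjamini-Hochberg adjustment covers every gene tested, and calls are at 0.05. The pseudocount makes fold changes of low genes too small. Each of 10 comparisons was also fitted with other pseudocounts, no filter, another scaling, only its 2 groups, the animal as a block, and without each library. The fit was tested on simulated data. Summaries used python 3.11.15, pandas 2.3.3, numpy 2.4.6 and matplotlib 3.10.9.

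Legs with 1 number came from 1 animal, which pairs them. Within an animal, left and right deviations from their groups had an r over genes of 0.12 to 0.30 in mice, apart from TAL345 at -0.03, and of 0.04 to 0.26 in rats. Nothing beyond the numbers says that legs of a group came from separate cages or runs, and p-values measure the spread between these legs.

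The members and lists were chosen with earlier results of these data known. Members are named when called, when among the 3 highest or lowest in a comparison with contralateral legs, or for a known role of their own. Mrpl1, Mrpl54, Mrpl17 and Mrpl43 were named after their values were seen.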

Additional observations from a re-analysis of the deposited data

Results flagged for a closer look

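In 68 sets of contralateral values, those of 32 members and of both subunit means in each species, 16 held 1 leg far from the rest by Dixon's test, where chance alone flags about 1 in 20. Members were named partly for extreme changes against these same legs, and sets share legs, so this rate is not their background. The legs were TAR299 in 12 of the 16 sets, the shallowest library, and TAR349 in 4, the mouse contralateral leg with the lowest subunit means.

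TAR299 was high for Mrpl12 at 282 CPM (others 127 to 184), Mrpl52 at 29.6 CPM (13.2 to 18.5), Mrps25 at 42.3 CPM (20.5 to 26.0) and Mrps34 at 83.2 CPM (41.1 to 48.6). It was low for Mrpl20 at 15.8 CPM (32.4 to 46.4), Mrpl42 at 10.3 CPM (47.1 to 79.4), Mrpl48 at 11.1 CPM (34.9 to 46.4), Mrpl50 at 62.0 CPM (78.5 to 92.9) and Mrpl58 at 22.8 CPM (31.1 to 40.5). It was also low for Mrps11 at 15.8 CPM (29.8 to 40.0), Mrps22 at 14.0 CPM (32.4 to 40.4) and Mrps36 at 43.7 CPM (100.6 to 144).

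TAR349 was low for Mrpl13 at 23.7 CPM (27.4 to 31.1), Mrpl45 at 34.8 CPM (42.7 to 52.1), Mrpl58 at 12.2 CPM (17.2 to 20.9) and Mrps22 at 8.08 CPM (others up to 14.1).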

How the results depend on the processing

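The replicate block, which takes the animal as a term, gave 0 calls for 2-day mice against contralateral legs, 1 for daily rats and 0 for rats trained every 3 days, 0 for daily rats against sham and 0 for rats trained every 3 days against sham. The median of the small subunit in the last was 0.16 under the block. For mice trained over 17 days against 2 days the block gave medians of -0.017 and -0.068. It changed the call of no other comparison. In 2-day mice 2 members were called after median-of-ratios rescaling, 2 with mitochondrially encoded genes left out and 2 with only the 2 groups in the fit. The last setting gave 1 call at 10 days. Leaving out 1 library at a time, 2-day mice gave 0 to 37 calls, with medians of 0.0073 to 0.43 for the large and 0.043 to 0.57 for the small subunit, and 2 calls without TAR337, TAR341 or TAR348. At 10 days there were 0 to 1 calls. Over 17 days against 2 days gave 0 to 25 calls, with medians of -0.39 to 0.022 and -0.56 to -0.042. Daily rats gave 0 to 9 calls against contralateral and 2 to 18 against sham legs, and rats trained every 3 days gave 0 to 2 against contralateral legs. No called value changed sign, and 616 other values of counts and medians stayed within 1.5 times or 1 SD. Why these counts moved was not tested, beyond the fewer legs in each such fit. Groups of 2 and 3 legs and the depth of TAR299 limit the precision.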
